A study of Mus musculus with 35 samples.

Results

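The 10 immediate early genes described here were Fos, Fosb, Jun, Junb, Atf3, Egr1, Nr4a1, Ier2, Ier3 and Dusp1, chosen by name and read through the gene annotation of the arrays. They were 10 of the 18193 genes that had a probe set of their own, and they held 11 of the 45101 probe sets, with 2 for Jun (1417409_at and 1448694_at) and 1 for each other gene. The study read 35 Affymetrix arrays, each of RNA from whole FVB/NJ kidney, to ask how gene expression differs between diabetic and control kidneys as the mice age. The diabetic mice belong to OVE26, a line whose beta cells make too much calmodulin from a transgene under an insulin promoter and fail early in life, so that the mice lack insulin; the transgene is aimed at the pancreas and not at the kidney. The controls are labelled only as control mice of the same strain, and no treatment is given for either group. At 2 months of age each group had 6 arrays, at 4 months the diabetic group had 7 and the control group 4, and at 8 months each again had 6. The 5 proximal tubule markers all passed the filter on dim genes, and their mean log2 signal lay between 12.20 and 13.33 on every array, as for kidney tissue.

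Immediate early genes are transcribed within minutes of a stimulus and need no new protein for it, because the factors that switch them on, such as CREB and the serum response factor SRF, already wait in the cell and are activated by kinases. Most of their messages decay quickly, so a level seen in a tissue depends on how recently the cells were stimulated. Many encode transcription factors that act on a later wave of genes, and in the kidney they are known to respond to ischaemia, injured tubules, growth factors and handling of the tissue. RNA from a whole organ mixes all cell types, so that more cells of a type and more RNA per cell cannot be told apart here.

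The signals are log2 values, on which a difference of 1 is a 2-fold change. Levels were compared within an age, because the mean over all probe sets lay at 6.43 to 6.44 for the youngest mice, 6.02 to 6.04 for those of 4 months and 6.54 for the oldest, and each age may have been scaled by itself. A gene is said to be called, to rise or to fall where the two-sided p of limma, adjusted by the Benjamini-Hochberg method over all 13004 genes bright enough to test, was under 0.05. Counts of genes at an unadjusted p under 0.05 of limma are given as description only. The share of all genes under that cut was not counted, so they cannot be set against it. Of the 10 genes, 9 were tested, and Fosb was too dim.

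Transcription of these genes is started from short promoters, and 250 bases before the RefSeq start were at hand for 8 of the 10 genes (build GRCm38.p6, RefSeq). The windows of the 3 genes that were called at some age, Nr4a1, Ier3 and Atf3, are shown with those of Fos and Dusp1, as the contrast between windows with several CREB motifs and windows with 1 or none. They lie at chr15:101266596-101266845 on the plus strand for Nr4a1, at chr17:35821463-35821712 on the plus strand for Ier3, at chr1:191183334-191183583 on the minus strand for Atf3, at chr12:85473640-85473889 on the plus strand for Fos and at chr17:26508473-26508722 on the minus strand for Dusp1. Each runs 5′ to 3′ along its gene. Capitals mark TGACG, the core of the cAMP response element that CREB and ATF proteins bind, and TATAA, the core of the TATA box. Both were read on both strands (so also CGTCA), and the TATAA matches shown lie on the gene's own strand.
Nr4a1: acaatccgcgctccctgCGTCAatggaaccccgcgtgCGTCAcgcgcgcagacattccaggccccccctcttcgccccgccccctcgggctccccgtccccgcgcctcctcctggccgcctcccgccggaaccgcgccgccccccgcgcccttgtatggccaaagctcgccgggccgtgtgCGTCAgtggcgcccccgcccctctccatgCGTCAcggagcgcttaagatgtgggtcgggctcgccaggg
Ier3: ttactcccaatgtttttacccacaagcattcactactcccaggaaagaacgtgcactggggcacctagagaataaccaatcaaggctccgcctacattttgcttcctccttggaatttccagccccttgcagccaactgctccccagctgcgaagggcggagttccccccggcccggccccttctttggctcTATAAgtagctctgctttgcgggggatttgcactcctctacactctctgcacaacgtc
Atf3: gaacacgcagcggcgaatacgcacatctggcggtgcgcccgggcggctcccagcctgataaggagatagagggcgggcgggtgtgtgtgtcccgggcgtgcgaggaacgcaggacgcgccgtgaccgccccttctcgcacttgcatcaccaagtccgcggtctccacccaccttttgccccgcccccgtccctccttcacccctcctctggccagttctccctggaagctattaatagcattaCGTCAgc
Fos: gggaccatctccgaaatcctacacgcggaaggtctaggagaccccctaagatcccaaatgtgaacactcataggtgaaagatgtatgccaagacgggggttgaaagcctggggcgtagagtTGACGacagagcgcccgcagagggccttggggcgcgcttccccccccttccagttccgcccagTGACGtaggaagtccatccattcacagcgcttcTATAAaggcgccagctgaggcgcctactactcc
Dusp1: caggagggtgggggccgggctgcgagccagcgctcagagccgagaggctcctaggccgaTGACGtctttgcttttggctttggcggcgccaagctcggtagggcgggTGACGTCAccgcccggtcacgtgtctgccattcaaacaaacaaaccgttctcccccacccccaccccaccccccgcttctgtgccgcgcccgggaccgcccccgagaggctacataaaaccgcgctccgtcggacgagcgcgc

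The Nr4a1 window held 4 copies of the CRE core, with their first letters at -233, -213, -69 and -40 from the start. The Dusp1 window held 3, of which the copies at -143 and -140 overlap within the full palindrome TGACGTCA. Fos held 2 copies, at -129 and -66, and a TATA box at -33, while Atf3, Fosb and Junb held 1 copy each and Jun and Ier3 none. The core occurred in 17.8% of 32851 promoter windows of this length, 3 or more copies occurred in 0.688% and the full palindrome in 1.55%. The EGR1 motif GCGNGGGCG, read on both strands, occurred in the Fosb and Nr4a1 windows and in 4.7% of all windows. The AP-1 motif TGANTCA and the CArG box of SRF were found in none of the 8 windows, against 6.75% and 1.47% of all windows. A match is only a description of the letters, and an absent match says only that these letters are not in this window. Of the 3 called genes Nr4a1 thus held 4 CRE cores, Atf3 1 and Ier3 none.

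At 2 months 0 of the 9 genes tested were called by limma, against 2.54% of all genes, and 1 of them (Jun) had an unadjusted p under 0.05. At 4 months Nr4a1 and Ier3 rose, 2 of 9 genes against 0.969% of all genes in either direction and 0.415% higher. At 8 months Atf3 rose, 1 of 9 against 16.8% of all genes, a share that does not exceed that of all genes. The median difference of the 9 genes, diabetic minus control, stood at 0.33 for 2 months, 0.77 for 4 months and -0.00 for 8 months, beside medians over all genes of -0.01, 0.01 and -0.00. The difference was above 0 for 8 of 9 genes at 2 months, 9 of 9 at 4 months and 4 of 9 at 8 months. These signs are not independent, because the 9 genes shared their deviations within groups (median Pearson r of their pairs 0.603). Without diabetic array 1 at 2 months Dusp1 and Ier2 lay below 0 at that age (-0.11 and -0.063).

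**Figure D1:**
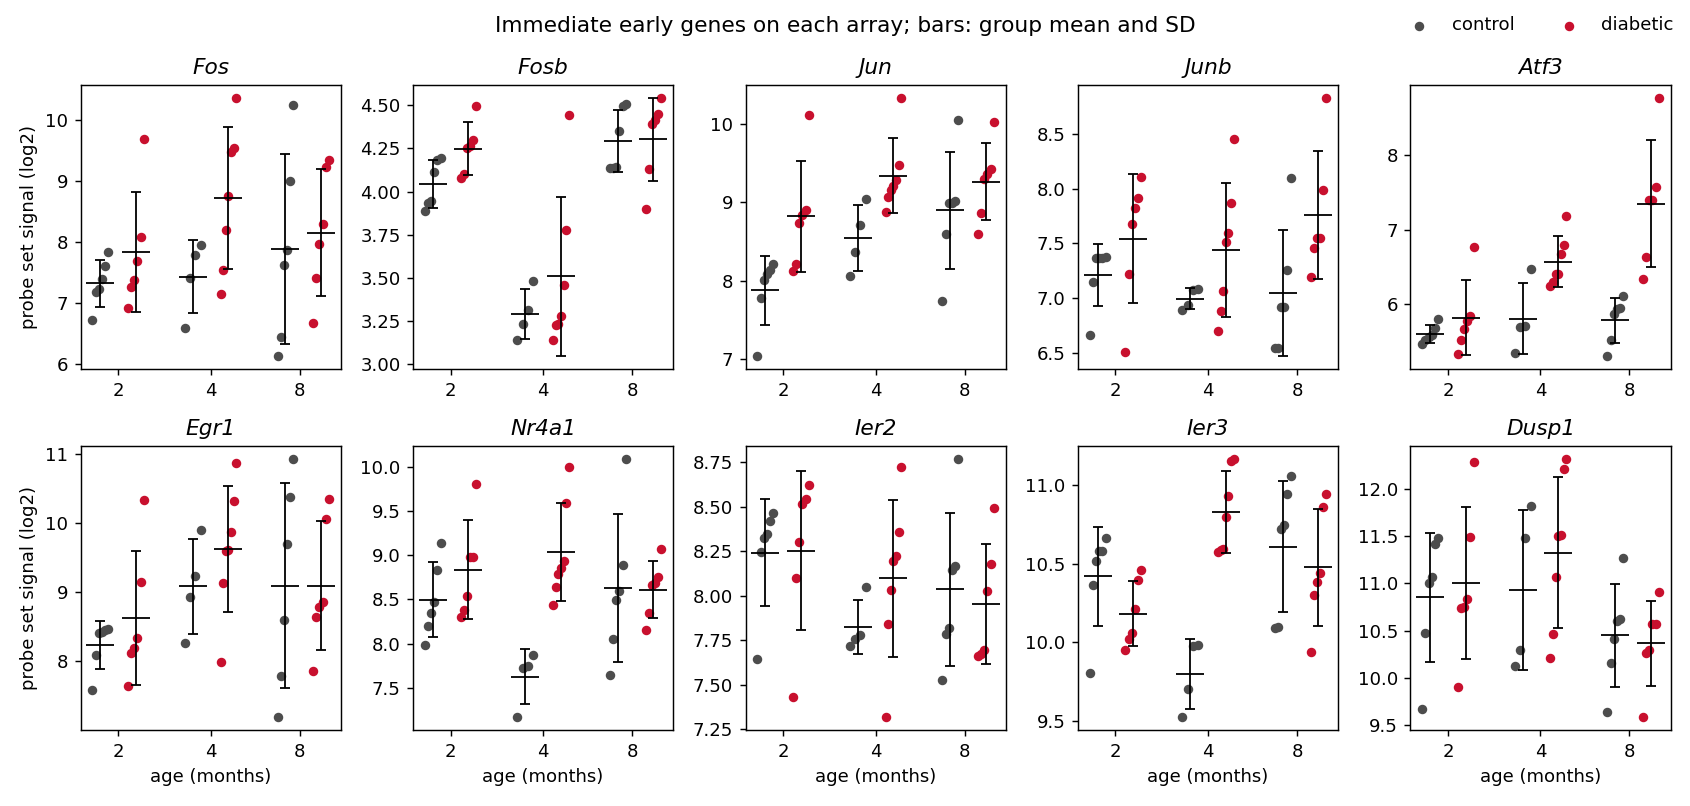
Log2 probe set signal (vertical axes, each with its own range) of the 10 immediate early genes on every array, by age in months, in control (grey) and diabetic (red) kidneys; long bars are group means and whiskers are SDs. Points are sorted by value within a group. The diabetic and control arrays do not overlap for Nr4a1 and Ier3 at 4 months and for Atf3 at 8 months, and 1 diabetic array at 2 months stands high for most genes.

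Fos, Fosb, Jun, Junb and Atf3 encode subunits of AP-1, the family of paired leucine-zipper factors, in which Fos and Jun proteins join each other and ATF3 joins Jun proteins or itself. Atf3 (probe set 1449363_at), a factor induced by many forms of cell stress, had the largest difference of the 9 tested genes at 8 months. Its signal at 8 months was 5.30, 5.91 and 6.12 (lowest, median, highest) in controls and 6.34, 7.40 and 8.77 in diabetic kidneys. Every diabetic array lay above every control array, which held for 9.7% of all genes at that age in either direction. The difference was 1.57 ± 0.26 (SE), or 2.96-fold, with an adjusted p of 4.36e-05 in the limma fit. The diabetic arrays varied more (SD 0.85, n = 6) than the controls (SD 0.31, n = 6), with array 3 highest and array 4 lowest.

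At the younger ages Atf3 was not called. At 4 months the controls read 5.34, 6.48, 5.71 and 5.70 and the diabetic arrays 6.24, 6.41 and 7.19 (lowest, median, highest). Of the controls only array 2 reached into the diabetic range, and the difference was 0.77 with a 95% interval of 0.19 to 1.34 (adjusted p = 0.238 in limma). With limma's array weights it was 0.72, with an adjusted p of 0.0361, and 942 genes were then called at that age in place of 126. At 2 months the groups overlapped, from 5.34 to 6.77 in diabetic and from 5.47 to 5.80 in control kidneys, and the difference was 0.22 (interval -0.31 to 0.75).

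Jun, the most studied partner in AP-1, had its largest difference at 2 months, which was not called. Its brighter probe set (1417409_at) read 7.04, 8.05 and 8.22 in controls (lowest, median, highest) and 8.13, 8.79 and 10.11 in diabetic kidneys. Only the upper end of the controls and the lower end of the diabetic arrays overlapped, and the difference was 0.94 ± 0.31 (SE; 95% interval 0.32 to 1.57), with an adjusted p of 0.0963. The labels do not say whether array numbers mark pairs. Same-numbered diabetic and control arrays deviated together at 2 months, and with the number as a block the difference stayed at 0.94 and the adjusted p was 0.0462. Without diabetic array 2 it was 1.08, also with an adjusted p of 0.0462, and without diabetic array 1 it was 0.69. With the signal of the heat-shock gene Hspa1a as a covariate it was -0.11 (adjusted p = 0.977).

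At 4 months Jun differed by 0.80 (interval 0.12 to 1.48; adjusted p = 0.338) and at 8 months by 0.36 (interval -0.26 to 0.99; adjusted p = 0.478). The dimmer probe set of Jun (1448694_at) gave smaller differences of the same sign, 0.49, 0.61 and 0.25 at 2, 4 and 8 months, and was not called in a limma fit of 23003 probe sets (adjusted p = 0.278, 0.327 and 0.521). The deviations of both probe sets from their group means followed each other over the 35 arrays, with a Pearson r of 0.85. They parted on control array 6 at 2 months, the lowest control of that age for 1417409_at (7.04) and the highest for 1448694_at (8.14). That array also had the highest 3′/5′ log2 ratio of the actin control probe sets, 2.56. The larger 2-month difference of 1417409_at thus rests in part on this array.

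Junb, an AP-1 subunit that is less active than Jun on many promoters, came nearest to the threshold at 8 months. Controls read 6.55, 6.92 and 8.09 (lowest, median, highest) and diabetic arrays 7.20, 7.55 and 8.83. Most controls lay below every diabetic array and 2 reached into their range, and the difference was 0.71 ± 0.28 (SE; interval 0.15 to 1.28; adjusted p = 0.0769). It passed without control array 5, at 0.92 (adjusted p = 0.0165), and without diabetic array 4, at 0.82 (adjusted p = 0.0439). At 2 and 4 months Junb differed by 0.33 (interval -0.24 to 0.89) and 0.44 (interval -0.17 to 1.06).

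Fos, the partner of Jun and the usual marker of recent stimulation, had the largest SD within groups of the 9 genes, at 1.05. At 4 months the controls read 7.95, 7.78, 6.60 and 7.40, and the diabetic arrays 7.14, 8.76 and 10.36 (lowest, median, highest). Diabetic kidneys thus spread from within the control range to well above it, and the difference of 1.28 ± 0.61 (SE; interval 0.04 to 2.53) had an adjusted p of 0.423. At 2 months the difference was 0.51 (interval -0.64 to 1.66) and at 8 months 0.27 (interval -0.88 to 1.42). At 8 months the controls alone ran from 6.13 to 10.24, wider than the diabetic arrays (6.68 to 9.34). Fosb, whose protein can stand in for Fos, had a mean log2 of 3.97, below the filter at 5.273. Its groups overlapped at each age, and in an unfiltered limma fit of 34945 probe sets its differences were 0.21, 0.22 and 0.01 (adjusted p = 0.647, 0.811 and 0.986).

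**Figure D2:**
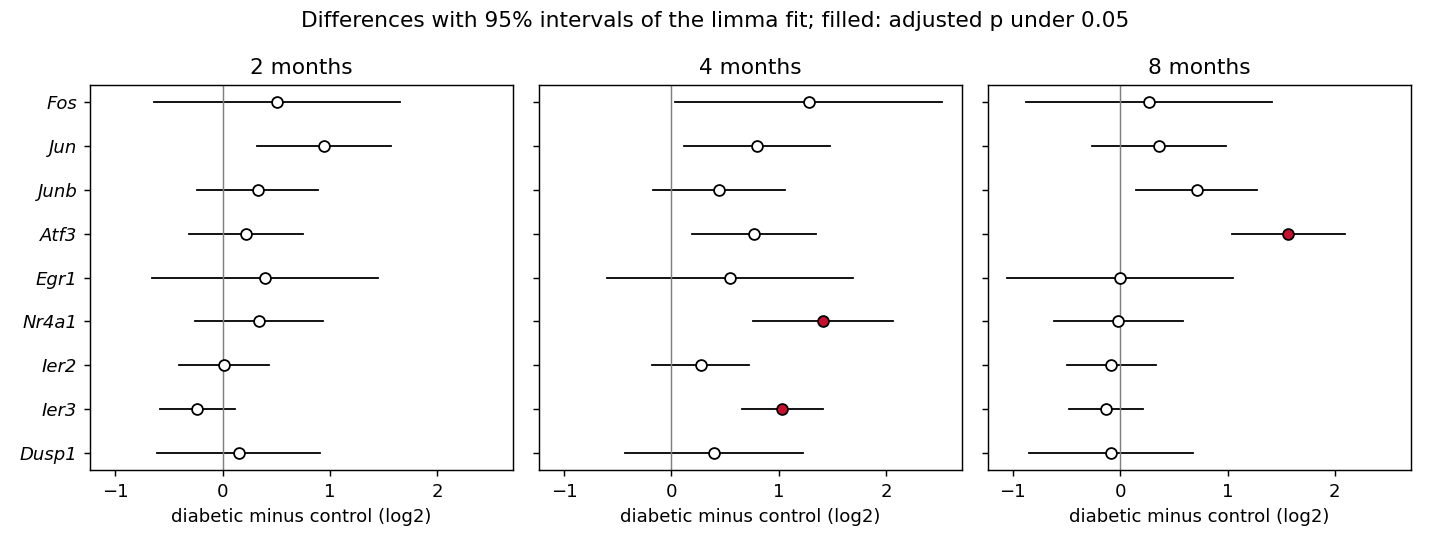
Difference in log2 signal (diabetic minus control, horizontal axis) of the 9 tested genes at 2, 4 and 8 months, with 95% intervals of the limma fit; filled points have an adjusted p under 0.05. Filled points are Nr4a1 (1.41) and Ier3 (1.03) at 4 months and Atf3 (1.57) at 8 months.

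Egr1 and Nr4a1 encode transcription factors outside AP-1. Nr4a1 (probe set 1416505_at), an orphan nuclear receptor (Nur77) whose activity is set mainly by how much of it is made, rose at 4 months. The controls read 7.87, 7.73, 7.16 and 7.75, and the diabetic arrays 8.44, 8.86 and 10 (lowest, median, highest). No control reached the lowest diabetic array, and the 2 groups did not overlap, as for 4.81% of all genes at that age. The difference was 1.41 ± 0.32 (SE), or 2.66-fold, with an adjusted p of 0.0185 in limma. Without control array 3 it was 1.26 (adjusted p = 0.133) and without control array 4 it was 1.45 (adjusted p = 0.0689), and neither fit called it. The difference was thus no smaller without control array 4. Over all genes 36 and 29 were called at that age in these fits, in place of 126. At 2 months Nr4a1 overlapped between groups (difference 0.34, interval -0.26 to 0.94), and at 8 months the difference was -0.02 (interval -0.62 to 0.58).

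Egr1, a zinc-finger factor that binds GC-rich promoters, was not called at any age. At 2 months it read 7.58, 8.42 and 8.48 in controls (lowest, median, highest) and 7.64, 8.27 and 10.34 in diabetic kidneys. Its differences were 0.39 (interval -0.66 to 1.45), 0.54 (interval -0.60 to 1.69) and -0.00 (interval -1.06 to 1.05) at 2, 4 and 8 months. The groups overlapped at each age, and each interval reaches past 1, a 2-fold change.

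Ier2, Ier3 and Dusp1 encode proteins that act on signalling, survival or transcription without being classical DNA-binding factors. Ier3 (IEX-1, probe set 1419647_a_at), a small protein that modulates ERK signalling and cell survival, rose at 4 months. Its controls read 9.99, 9.97, 9.52 and 9.70, and its diabetic arrays 10.58, 10.80 and 11.17 (lowest, median, highest). All 7 diabetic arrays lay above all 4 controls, and the SD within the groups was 0.26 and 0.22. The difference was 1.03 ± 0.19 (SE), or 2.04-fold, with an adjusted p of 0.00351, and it was called whichever 1 of the 11 arrays was left out (0.94 to 1.09).

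At the other ages the diabetic and control arrays of Ier3 overlapped. The difference was -0.24 (interval -0.58 to 0.11) at 2 months and -0.13 (interval -0.48 to 0.22) at 8 months. Ier2, a small nuclear protein, differed by 0.01, 0.27 and -0.08 at 2, 4 and 8 months, with 95% intervals that all lay between -0.50 and 0.73. Dusp1, the phosphatase that switches off p38 and JNK, differed by 0.15 (interval -0.61 to 0.91), 0.40 (interval -0.43 to 1.22) and -0.09 (interval -0.85 to 0.67). The brightest and dimmest Dusp1 arrays at 4 months were diabetic array 7, at 12.32, and control array 4, at 10.13, and the groups overlapped widely.

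The 4-month calls stand beside other differences among the arrays of that age. Controls 3 and 4 had Arntl signals of 7.84 and 8.17 and Dbp signals of 8.75 and 8.02, while the other 9 arrays were at 5.54 to 6.21 for Arntl and 10.24 to 11.29 for Dbp; both genes belong to the circadian clock. Control 3 lay above the mean of the 4 controls for 0 of the 9 genes and control 4 for 1. Ier3 on these 2 controls (9.52 and 9.70) was below the other 2, as were Fos, Jun, Junb, Egr1 and Dusp1, while Nr4a1 was lower on control 3 (7.16) but not on control 4 (7.75, with control 2 at 7.73). Without both arrays Ier3 differed by 0.85 (adjusted p = 0.269) and Nr4a1 by 1.24 (adjusted p = 0.592), and 5 genes in all were called. With Arntl minus Dbp as a covariate both genes kept their call. Of 8 tested clock genes 0 were called by limma at 4 months and 4 had an unadjusted p under 0.05. Of the 126 genes called at 4 months 54 were higher and 72 lower, and after quantile normalization over all arrays 71 were higher and 58 lower, with Nr4a1 and Ier3 called in both.

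Whether the effect itself changed with age was tested by its difference between ages. For Ier3 the effect at 8 months was lower than that at 4 months by a log2 difference of -1.16 ± 0.25 (SE; adjusted p = 0.0163), against 0.877% of all genes called in that comparison. The effect of Ier3 at 4 minus that at 2 months was 1.27 ± 0.25 and missed the threshold over all genes (adjusted p = 0.117). For Atf3 the effect at 8 months exceeded that at 2 months by 1.35 ± 0.37 (adjusted p = 0.0317, against 3.89% of all genes called). For Nr4a1 the effect at 8 minus that at 4 months was -1.43 ± 0.44 (adjusted p = 0.114). In the F test over the 3 ages 1 of 9 genes, Ier3, was called (adjusted p = 0.00401), against 2.5% of all genes. Left out in turn, each of 6 arrays ended the call of the Atf3 difference between 8 and 2 months (adjusted p up to 0.065), while over all 35 arrays left out its value stayed between 1.07 and 1.55. They were controls 1 and 2 and diabetic arrays 2 and 3 at 8 months, and diabetic arrays 2 and 3 at 2 months. Without control 3 at 4 months the Ier3 difference between 8 and 4 months was -1.07 (adjusted p = 0.0523).

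Kidneys of the same group differed widely in these genes. Beside that SD of 1.05 for Fos, the SD within groups was 0.97 for Egr1, 0.70 for Dusp1, 0.57 for Jun and 0.55 for Nr4a1, where the median over all genes was 0.165. Of all genes 99.9% had a smaller spread than Fos and than Egr1. Ier3 had the smallest spread of the 9, at 0.31, still above that of 93.6% of all genes. Most of the limma intervals of these genes are therefore wide.

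The deviations were shared. After removal of the group means, all 36 pairs among the 9 tested genes had a Pearson r above 0 over the 35 arrays, with a median of 0.603. Fos and Egr1 followed each other most closely (r = 0.93), then Junb and Ier2 (r = 0.906) and Jun and Nr4a1 (r = 0.806), while Ier3 and Dusp1 did so least (r = 0.287). The arrays share their platform, and some may share a batch or tissue handling, so these values only describe the arrays. Diabetic array 1 at 2 months stood above its group mean for all 9 genes, by 1.03 on average, diabetic array 7 at 4 months by 0.93 and control array 5 at 8 months by 1.06, likewise for 9 of 9. Control array 1 at 8 months lay below its group mean for all 9 genes, by a mean deviation of -0.90.

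**Figure D3:**
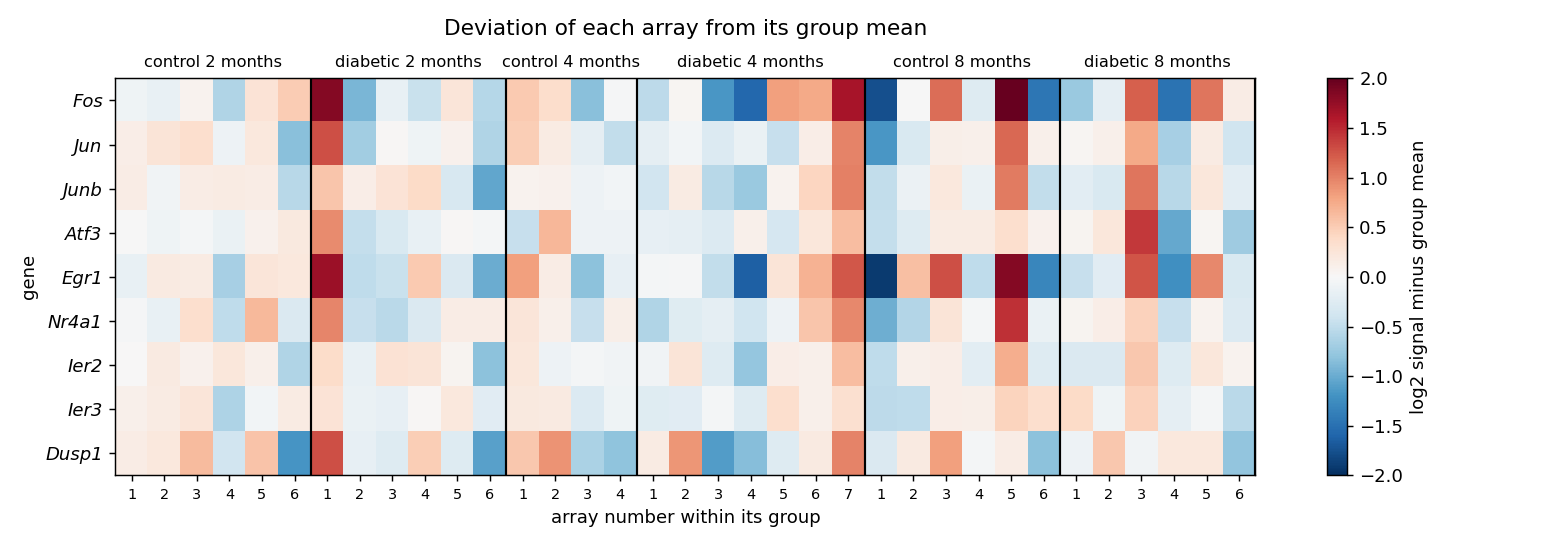
Log2 signal minus the group mean (colour, from -2 to 2) of the 9 tested genes, by row, on each of the 35 arrays, by column, with group boundaries as black lines. Most genes of a column tend to share a colour, as on diabetic array 1 at 2 months, diabetic array 7 at 4 months and control array 5 at 8 months, which are above the mean in 9 of 9 genes.

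Heat-shock genes moved with some of these arrays. Hspa1a, the inducible chaperone HSP70, read 11.02 on diabetic array 1 at 2 months, 11.03 on diabetic array 7 at 4 months and 9.06 on control array 5 at 8 months, in each case the highest of all arrays of that age. On some other arrays Hspa1a and the 9 genes parted. Diabetic array 4 at 4 months had an Hspa1a signal of 9.78 but the lowest mean deviation of that age, -0.70. Diabetic array 3 at 2 months had 10.68 with a mean deviation of -0.14, and diabetic array 3 at 8 months 8.55 with 0.79. At 2 months 4 of 7 heat-shock genes rose, beside 2.54% of all genes called, and their mean signal ran from 11.34 to 12.11 in diabetic and from 10.79 to 11.09 in control kidneys. At 4 and 8 months 0 of 7 were called by limma, with 2 at an unadjusted p under 0.05 at each of those ages. With Hspa1a as a covariate the difference of Jun at 2 months was -0.11 (adjusted p = 0.977) and that of Nr4a1 at 4 months was 1.11 (adjusted p = 0.0793), while Ier3 at 4 months and Atf3 at 8 months kept their call. Hspa1a itself rose at 2 months, by 2.15 ± 0.35, with no overlap between the groups, so at that age the covariate takes up part of the group difference. Without the 3 arrays of the highest Hspa1a signal at their age Nr4a1, Ier3 and Atf3 all kept their call, and Junb was called too at 8 months (0.92, adjusted p = 0.00782). One control of 2 months, array 6, had a 3′/5′ log2 ratio of the actin control probe sets of 2.56 where the other arrays had at most 1.35, and with that ratio as a covariate the calls were as before, 0, 2 and 1.

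The genes most like the 9 in pattern were sought among all others by the Pearson r of their deviations from group means with the mean deviation of the 9 genes, over 35 arrays. The 8 highest were Btg2 (0.841), an antiproliferative gene, Csrnp1 (0.83), Apold1 (0.774), an early-response gene of endothelium, Zfp36 (0.752), which destabilises inflammatory messages, Hbegf (0.746), an EGF receptor ligand, Ccn1 (0.730), a matricellular protein, Rgs4 (0.671), a regulator of G protein signalling, and Ddit4 (0.666), an inhibitor of mTORC1. Within single ages r fell as low as 0.297, for Ccn1 at 4 months, and rose to 0.980 for Btg2 at 4 months. None of the 8 was called at any age. The nearest was Ddit4 at 8 months, at 0.78 (adjusted p = 0.0528 in limma), and Csrnp1 at 4 months, at 0.40, had an adjusted p of 0.180.

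At 8 months some genes of 6 lists around the pathway were called, at an age when 16.8% of all genes were called (9.87% higher), while 0 genes of these lists were called by limma at 2 and 4 months. Among the other AP-1, ATF and small Maf genes 3 of 14 tested (15 listed) were higher at 8 months and 0 lower, with a median of 0.08, beside 9.87% of all genes called higher. Maff, a small Maf protein without an activation domain, read 5.47 to 5.78 in controls and 5.97 to 7.70 in diabetic kidneys, a difference of 1.00 ± 0.16 (adjusted p = 3.47e-05). Fosl2 rose by 0.99 ± 0.20 (6.55 to 6.95 in controls, 7.17 to 8.86 in diabetic kidneys) and Fosl1 by 0.56 ± 0.14, with overlap; both encode Fos-related AP-1 subunits. At 2 months 2 and at 4 months 3 of the 14 had an unadjusted p under 0.05.

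Of 42 other immediate early genes tested (45 listed), 13 were higher at 8 months and 1 lower, with a median of 0.32 beside -0.00 for all genes and 9.87% of all genes called higher. Socs3, a feedback inhibitor of JAK-STAT signalling, read 5.83 to 6.02 in controls and 6.46 to 8.95 in diabetic kidneys, a difference of 1.38 ± 0.22. Myc, a growth-promoting factor, rose by 1.00 ± 0.14, Klf6 by 0.97 ± 0.17 and Klf4 by 0.86 ± 0.15, both zinc-finger factors. Rhob, a small GTPase, rose by 0.94 ± 0.14 and Tnfaip3 (A20), an inhibitor of NF-kappaB, by 0.93 ± 0.14. For these 6 genes the diabetic and control arrays did not overlap, but they were named for the smallest p of the list. Of the 42 tested, 8 did not overlap, against 9.7% of all genes. The 1 gene that fell was Sik1, a kinase, by -0.47 ± 0.15, with overlap, named after its value was seen. At 2 and 4 months 4 and 10 of the 42 had an unadjusted p under 0.05, a count without the share of all genes beside it.

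On the signalling side, of 25 upstream kinases and SRF and CREB factors tested (31 listed) 2 rose at 8 months, Crem, which encodes modulators of cAMP response elements, by 0.72 ± 0.22, and Mrtfa, a cofactor of SRF, by 0.37 ± 0.09, and the median was 0.05; the share, 2 of 25, does not exceed the 9.87% of all genes called higher. Crem missed the threshold without control array 1 or 3 or diabetic array 3 (adjusted p up to 0.0923). Of 18 MAP kinase phosphatases and feedback inhibitors, apart from Dusp1, 3 rose and 1 fell, with a median of -0.01, and 4 of 18 is near the 16.8% of all genes. Dusp5 rose by 0.41 ± 0.11, Dusp8 by 0.36 ± 0.11 and Dusp3 by 0.29 ± 0.09, and Spred2, an inhibitor of the Ras-ERK path, stood at -0.41 ± 0.14. Without diabetic array 3 only 1 of these 4 was called, and leaving out any 1 of 9 arrays ended the call of Spred2. At 2 months 3 and 3 genes of these lists, and at 4 months 1 and 2, had an unadjusted p under 0.05.

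Of 7 tested genes of the EGF receptor and its ligands (11 listed) 1 rose and 2 fell at 8 months, where 16.8% of all genes were called. Egf, a growth factor made in the distal tubule, read 13.37 to 13.51 in controls and 11.98 to 13.11 in diabetic kidneys, a difference of -0.89 ± 0.10 (adjusted p = 6.84e-08). Erbb2, a receptor of that family, fell by 0.38 ± 0.11 on the log2 scale. Btc (betacellulin) stood at 0.62 ± 0.22 with an adjusted p of 0.0483, and leaving out any 1 of 9 arrays ended its call. Of the described targets of AP-1 and EGR1, 9 of 12 tested (20 listed) were higher and 0 lower, with a median of 0.64, beside 9.87% of all genes called higher. Cd44, an adhesion receptor, read 5.40 to 6.01 in controls and 7.61 to 10.17 in diabetic kidneys (2.89 ± 0.26). The chemokine gene Ccl2 rose by 1.84 ± 0.20, Icam1 by 1.09 ± 0.16, F3 (tissue factor) by 0.94 ± 0.20, Plaur (the urokinase receptor) by 0.86 ± 0.12 and Tgfb1 by 0.68 ± 0.12. For all 6 the groups did not overlap, but these were named for the smallest p of the list. Of the 12 tested, 8 did not overlap, against 9.7% of all genes. Ccl2 passed the filter of 5.273 only through the diabetic kidneys of 8 months (mean 7.09). Its means were 5.26 in controls of that age and 4.49 (diabetic) and 4.03 (control) at 4 months. Its place in the count of 9 thus rests on the group where it is high. The described targets answer to many other factors as well. For these 2 lists 2 and 2 genes at 2 months, and 3 and 4 at 4 months, had an unadjusted p under 0.05.

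**Figure D4:**
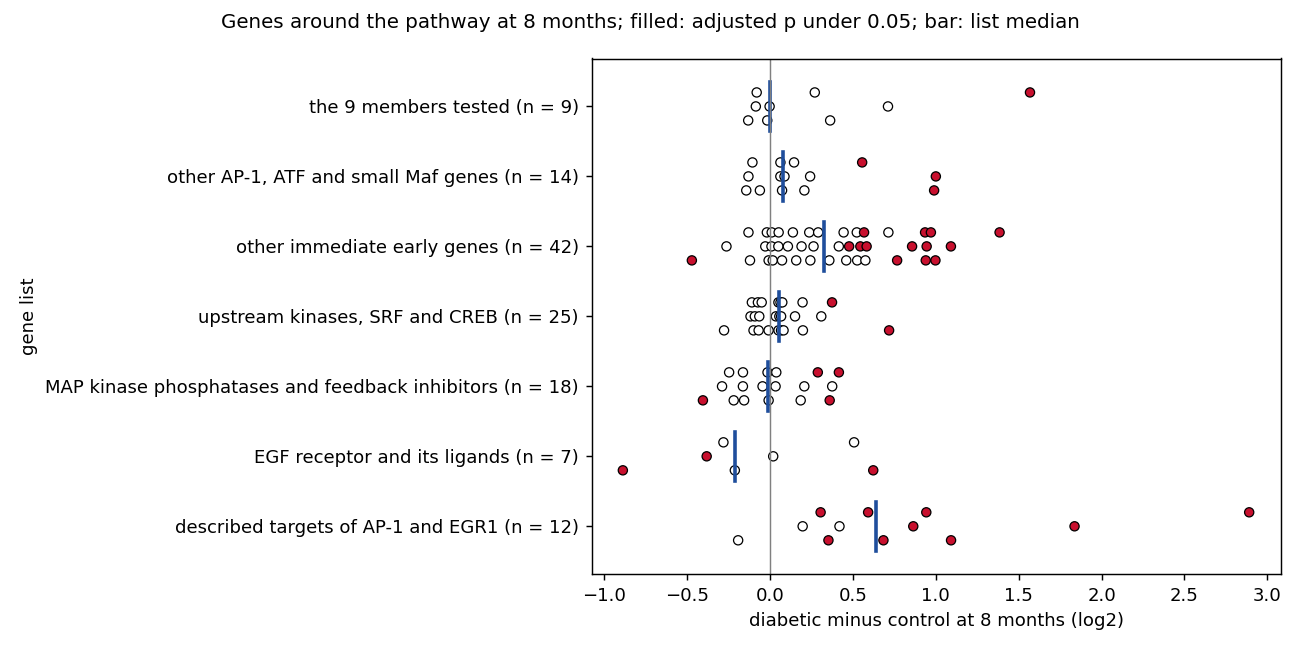
Difference in log2 signal (diabetic minus control at 8 months, horizontal axis) of each tested gene in the 9 immediate early genes and 6 lists around their pathway, by row; filled points have an adjusted p under 0.05 in limma, and vertical bars are list medians. The median is -0.00 for the 9 genes, 0.32 for other immediate early genes and 0.64 for described AP-1 and EGR1 targets, with Atf3 (1.57) the filled point of the top row.

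Cell type markers differed at 8 months too. Of 5 macrophage markers 4 rose (Lyz2 by 2.69, Cd68 by 2.35, C1qa by 1.40 and Adgre1 by 0.83), with Csf1r at -0.11, and their mean signal ran from 9.09 to 10.54 in diabetic and from 7.90 to 8.37 in control kidneys. The diabetic array with the highest Atf3 signal, array 3 (8.77), also had the highest macrophage mean (10.54), and the one with the lowest Atf3, array 4 (6.34), the lowest (9.09). Array 5 had nearly the same macrophage mean as array 4 (9.11), with Atf3 at 7.40. Arrays 3 and 4 were also the highest and lowest of their group in the mean deviation of the 9 immediate early genes (0.79 and -0.63). Both tested lymphocyte markers rose as well, Cd79a by 0.56 and Cd3e by 0.36, while the other 3 of 5 were below the filter or had no probe set of their own. Of 5 proximal tubule markers 4 fell, by 0.27 to 0.50 on the log2 scale. At 4 months 0 of the 5 macrophage markers were called by limma, with 3 at an unadjusted p under 0.05 and means of 7.62 to 8.29 in diabetic and 7.43 to 7.75 in control kidneys. Collecting duct markers had means of 10.13 to 10.48 in diabetic and 9.61 to 10.08 in control kidneys at 4 months, where 0 of 3 tested were called by limma and 2 (Aqp2 and Aqp3) had an unadjusted p under 0.05; both rose at 8 months, by 0.66 and 0.49. Of 3 tested adipocyte markers Ucp1, of brown fat, fell at 4 months (-2.28 ± 0.50, adjusted p = 0.0145) and at 8 months (-2.20 ± 0.46). The other 2 were not called and lay above 0, Adipoq at 0.02 and 0.85 and Fabp4 at 0.08 and 0.39 at 4 and 8 months. Of 4 thick ascending limb markers 3 fell at 8 months, and of 3 podocyte markers 1 did, Nphs1 (-0.61). The part of these cells in the levels of Atf3, Nr4a1, Ier3 and the lists was not tested.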

How the data were processed

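Per the labels' protocols, TRIzol was used to extract total RNA of whole kidney, and 5 ug of it gave the biotin-labelled cRNA for the Affymetrix arrays. The values the authors deposited are probe set signals whose range is that of log2 values; how they were background-corrected, summarized and normalized is not given in the sources used here. Of 45101 probe sets, 34945 named 1 gene and 932 several, and 34741 of the former matched the RefSeq gene table. Each gene took its probe set of highest mean, and genes with a mean log2 under 5.273 (the 40th percentile of probe sets) were left out, which gave 13004. One mean per group was fitted over 35 arrays with limma 3.58.1 (R 4.3.3; files were read with data.table, version 1.17.8), with 29 residual degrees of freedom and 33.7 after variance moderation; p-values were adjusted by the Benjamini-Hochberg method over all tested genes. The fit was tested on simulated data. Figures were drawn with matplotlib 3.10.9, from values read with pandas 2.3.3.

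Arrays have no read depth, and their number limits the precision. Across probe sets, 2 arrays of the same age had a Pearson r of 0.969 to 0.998 at 2 months, 0.993 to 0.997 at 4 months and 0.974 to 0.997 at 8 months. The labels do not say that each array is a separate mouse, so p-values measure only the spread between these samples. Same-numbered diabetic and control arrays deviated together in 6 of 6 pairs at 2 months (r from 0.246 to 0.444), in 1 of 4 at 4 months and in 2 of 6 at 8 months, by a minimum r of 0.1. Any pairing at 2 months was thus read from the data and not from the labels, and the main fit used no pairs at any age. Arrays of different numbers were not compared in this way, so these r values do not tell a pair from a wider batch. The fit with the replicate block paired the numbers at every age, also at 4 and 8 months, where few pairs deviated together.

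The genes, lists and tests were chosen with earlier results of these data known. Named genes were the 10 members, the called genes of each list (at most the 6 of smallest p), the 8 non-members most like the 9 in pattern, and clock, heat-shock and cell type markers beside a result. Alternatives were the replicate block, quantile normalization, other filters and probe set rules, each age alone, other variance settings, array weights, batches, covariates and leaving out arrays.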

Additional observations from a re-analysis of the deposited data

Results flagged for a closer look

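In 8 of 66 combinations of a probe set and a group, the gap between the most extreme array and the next, as a share of the group's range, passed Dixon's limit, which chance passes in about 1 in 20 groups. The combinations share arrays, and the 8 come from 4 arrays and include both Jun probe sets, so they are not independent and the count is not compared with chance. Control array 6 at 2 months was lowest for Jun (1417409_at, 7.04; the next 7.78), Junb (6.67; the next 7.15) and Ier2 (7.65; the next 8.25). Diabetic array 1 at 2 months was highest for Atf3 (6.77; the next 5.84) and for Jun probe set 1448694_at (9.42; the next 8.43). Diabetic array 7 at 4 months was highest for both Jun probe sets (10.33 and 9.33; the next 9.47 and 8.45). Control array 4 at 2 months was lowest for Ier3 (9.81; the next 10.37).

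The diabetes effect differed between ages by a limma test of the difference for Atf3, where the effect at 8 exceeded that at 2 months by 1.35, and for Ier3, where the effect at 8 minus that at 4 months was -1.16.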

How the results depend on the processing

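Atf3 at 8 months kept its call under all 12 alternatives that could test it (1.28 to 1.63) and whichever 1 of the 12 arrays of that age was left out (1.28 to 1.77). With a filter at the 60th percentile Atf3 was not tested, and 0 members were called at 8 months. In place of 0, 2 and 1 members at 2, 4 and 8 months, the fit with the replicate block called 1 (Jun), 0 and 2 (Atf3 and Junb), with Ier3 at 0.84 and Nr4a1 at 1.06 at 4 months (adjusted p = 0.102 and 0.151), and the block left 0 members in the F test and put the Ier3 effect at 8 minus 4 months at -0.97 (adjusted p = 0.159). The block, which paired the array numbers at every age, called 553 genes at 2 months in place of 330. Without controls 3 and 4 the 4-month count was 0, with the Hspa1a covariate (chosen after seeing the data) 1, and with the clock covariate the 8-month count was 2. Without the 3 arrays of the highest mean deviation (also chosen after seeing the data) it was 2 at 8 months. The F test called 2 members without those arrays, with that covariate and with array weights. Leaving out 1 array gave 0 to 1 members at 2 months, 1 to 2 at 4 months, 1 to 2 at 8 months and 1 to 2 in the F test.

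Over all genes the 2-month count was 19 with the Hspa1a covariate, 64 with that age alone, 696 with arrays 5 and 6 as a batch, 1296 with array weights and 192 to 515 without 1 array. The 4-month count was 5 without controls 3 and 4, 358 with that age alone, 942 with weights and 29 to 135 without 1 array. Of the lists at 8 months, the phosphatases had 2 called genes with the clock covariate and 1 to 4 without 1 array, the kinases 4 with probe sets averaged, 4 without the 3 arrays and 1 to 3 without 1 array, and the AP-1 list 1 under the stricter filter.

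Of 1562 test values 43 changed sign, and 0 of these were called. With the Hspa1a covariate the 2-month differences were -0.53 for Atf3, -0.32 for Dusp1, -0.37 for Egr1, -0.83 for Fos, -0.35 for Ier2, -0.11 for Jun, -0.32 for Junb and -0.49 for Nr4a1, and the effect of Nr4a1 at 8 minus 2 months was 0.44. Without the 3 arrays they were -0.11 for Dusp1 and -0.063 for Ier2 at 2 months, 0.36 for Egr1, 0.065 for Ier2 and 0.28 for Nr4a1 at 8 months, and 0.13 for Nr4a1 at 8 minus 2 months. Dusp1 was -0.32 at 4 months without controls 3 and 4 and 0.086 at 8 months with the clock covariate. Egr1 was -0.0028 at 4 months with the replicate block and 0.017 at 8 months with the RNA quality covariate, and Ier2 -0.056 at 2 months with the latter. Leaving out 1 array gave ranges across 0 for Dusp1 at 2 months (-0.11 to 0.37) and 8 months (-0.25 to 0.078), Egr1 (-0.385 to 0.364), Fos (-0.081 to 0.74) and Nr4a1 (-0.21 to 0.28) at 8 months, Ier2 at 2 months (-0.11 to 0.18) and 8 months (-0.19 to 0.065), and Ier3 at 8 minus 2 months (-0.00064 to 0.23). The causes were not tested. By Spearman rho in place of Pearson r, Plk3, Gadd45g, Klf2 and Noct entered the 8 genes most like the members.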
